A study of Mus musculus with 4 samples.

Results

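The expression of 54 genes of the innate immune and interferon response was followed in mouse ES cells (embryonic stem cells) that had regained Morc3 and in wild-type ES cells. The 54 genes were picked by symbol from the 24054 genes of the count tables by the roles of their products, and all 54 symbols were found. They encode nucleic-acid sensors and their adaptors, the interferon receptor and its transcription factors, the products of interferon-stimulated genes, and antigen presentation proteins, together with Irak3, Tlr2 and Ube2l6. The data were RNA-seq counts from 4 libraries. One was from wt26, the wild-type parental line, and 3 were from Morc3 rescue clones named 3C, 3D and 3M. Every clone was the progeny of 1 cell of the same Morc3 ko line, itself a single CRISPR-Cas9 clone derived from wt26, after a PiggyBac transposon carrying the Morc3 cDNA had been introduced under puromycin selection, so the ko history and the transgene are shared by all clones and absent from wild type. All cells were grown without feeder cells in serum and LIF. Morc3 ko libraries were not analysed here, so a level above wild type in the clones says nothing of the level in the ko line.

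In differentiated cells, RNA in the cytosol is recognised by RIG-I (Ddx58) and MDA5 (Ifih1), which act through Mavs, and DNA by cGAS and STING (Tmem173). Both routes activate the kinases Tbk1 and Ikbke, and these activate Irf3 and Irf7, which switch on the interferon genes. Secreted type I interferon binds Ifnar1 and Ifnar2, the kinase Tyk2 is activated, and a complex that holds Stat2 and Irf9 binds the interferon-stimulated response element (ISRE) in the promoters of antiviral genes. Pluripotent cells are known to respond weakly to viral RNA and to interferon while expressing a subset of interferon-stimulated genes on their own, and derepressed endogenous retroviruses are a known source of the nucleic acids that these sensors detect.

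The libraries held between 13620914 and 15479190 read pairs on genes in the clones and 18789457 in wild type. Levels are given as CPM (counts scaled by the TMM factor of each library), and 1 CPM corresponds to between 13.5 and 19.1 counts in a library. Morc3 itself was at 161 CPM in wild type and at 655, 496 and 609 CPM in clones 3C, 3D and 3M. Its fitted log2 fold change was 1.87 with a standard error of 0.17, and it did not pass the test used below at an adjusted p of 0.108 (quasi-likelihood test of edgeR, Benjamini-Hochberg adjusted). The same adjusted p was 0.0244 without 3C, 7.57e-09 without 3D and 0.516 without 3M, and DESeq2 gave 3.99e-23. All 10 ES cell markers of a list were detected, with a summed level between 4406 and 4677 CPM. Of 10 macrophage and leukocyte markers, Ptprc, Csf1r, Lyz2, Adgre1 and Tyrobp had 0 counts in every library. Others were read at low level, such as Itgam with 15 counts in wild type and 3 to 7 in the clones, and Cd3e with 19 and 6 to 11. The summed level of the list was 10.4 CPM in wild type and 8.82 to 14.3 CPM in the clones, most of it Cd68. Of 10 fibroblast markers, Col3a1, Dcn and Lum had 0 counts, and the summed level was 38.4 CPM in wild type and 27.7 to 52.2 CPM in the clones. Most of it was Thy1, at 31.7 CPM in wild type and 18.6 to 43.7 CPM in the clones. The endoderm list summed to 291 CPM in wild type and 317 to 431 CPM in the clones, mostly from Sparc and Col4a1. Sparc was at 217 CPM in wild type and 286 to 345 CPM in the clones. Col4a1 was at 65.7 CPM in wild type and 75.3, 25.3 and 43.9 CPM in 3C, 3D and 3M, on both sides of wild type. Clones were the only replicates of a condition. With 1 wild-type library, the spread came from the 3 clones and wild type was taken to vary as they do. The p-values therefore set the difference from wild type against the spread between clones, and the variation of wild type was not measured. In bulk RNA, a change in the share of cells that express a gene cannot be told apart from a change in RNA per cell.

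Of the 54 genes, 38 reached at least 1 CPM in every library, or 70.4%, against 48.4% of all genes in the tables. Another 5 genes had 0 counts in every library, or 9.26%, against 27% of all genes. The genes at 0 were Ifih1, Irf7, Isg15, Usp18 and Ifit3. Ifih1 encodes the MDA5 sensor of long double-stranded RNA, Irf7 the factor that amplifies interferon production, Isg15 a ubiquitin-like modifier, Usp18 the protease that removes it, and Ifit3 a protein that binds viral RNA together with Ifit1. For a count of 0, the exact Poisson 95% interval ended at 0.193 CPM in wild type and between 0.238 and 0.273 CPM in the clones. It covers counting error only, and reads shared between similar genes were not counted. Under 10 counts over the 4 libraries together were found for Uba7 (the ISG15-activating enzyme, 5 counts), Ifit1 (1 count), Isg20 (an RNA exonuclease, 7 counts) and Cxcl10 (a chemokine, 1 count). Irf2 and Oasl2 stayed at or below 7 counts in each library. These 11 genes were too low to test, and together they gave 7 counts in wild type and 18, 10 and 9 counts in the clones.

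At the other end, the highest levels per transcript length belonged to the interferon-induced transmembrane proteins, which block the entry of enveloped viruses. Ifitm2 was at 172 CPM per kilobase in wild type, Ifitm3 at 87.7 and Ifitm1 at 65.6. Trim25, a ubiquitin ligase that acts on RIG-I, followed at 37.7 CPM per kilobase, then Bst2 (tetherin, which holds budding virions at the cell surface) at 33.5 and Samhd1 (a dNTP hydrolase that limits reverse transcription) at 21.5. The ISG15 pathway thus held Trim25, among the 6 highest genes, together with Isg15 and Usp18, which had no counts. Levels per kilobase rest on the longest annotated coding transcript of each gene and are a description, with no test.

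**Figure D1:**
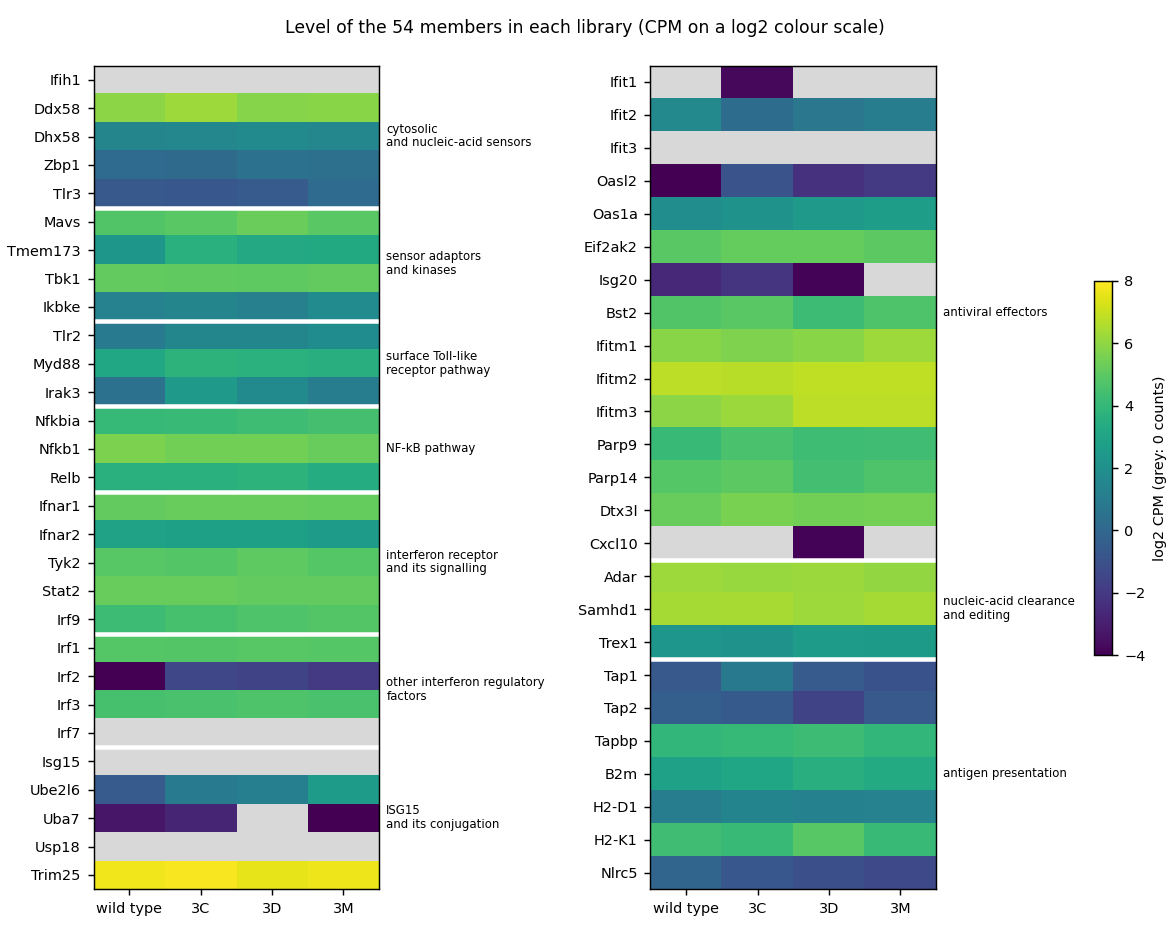
Heat map of the level of each of the 54 genes (rows, grouped by role) in wild type and clones 3C, 3D and 3M (columns), as CPM on a log2 colour scale, with 0 counts in grey. The 5 genes at 0 in all libraries, Ifih1, Irf7, Isg15, Usp18 and Ifit3, form full grey rows, while 38 genes reach at least 1 CPM in each library.

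RefSeq promoter windows of GRCm38.p6, from 250 bases before to 50 bases after the transcription start, were matched for 44 of the 54 genes. They were searched on both strands for the core of the ISRE, GAAANNGAAA, where N is any base. It was present in the windows of 15 of the 44 genes, or 34.1%, and in those of 3.99% of all 27025 genes with a window. Of the 10 matched genes too low to test, 6 held it, and of the 34 matched genes that were tested, 9 held it. A match is a run of letters and not a measured binding site. First shown are 4 genes with at most 1 count in the 4 libraries together, with the matches in capitals (TTTCNNTTTC is the same core on the other strand) and flanking bases in lower case, 5′ to 3′ along the gene's strand.
Isg15 (chr4:156200845-156200926, minus strand): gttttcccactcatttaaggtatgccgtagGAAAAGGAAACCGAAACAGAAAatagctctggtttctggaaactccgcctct
Ifit1 (chr19:34640755-34640843, plus strand): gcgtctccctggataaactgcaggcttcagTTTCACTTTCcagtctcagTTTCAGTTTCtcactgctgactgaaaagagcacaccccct
Ifit3 (chr19:34583343-34583446, plus strand): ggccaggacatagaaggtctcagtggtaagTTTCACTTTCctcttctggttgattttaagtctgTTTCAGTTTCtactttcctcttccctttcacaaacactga
Cxcl10 (chr5:92349063-92349132, minus strand): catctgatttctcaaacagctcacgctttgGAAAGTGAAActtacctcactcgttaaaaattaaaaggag
Isg15 had 3 overlapping matches, Ifit1 and Ifit3 had 2 each, and the first match in Isg15 began 78 bases before the start. For comparison, the windows of 5 genes that were read in every library are shown in the same way.
Ifitm2 (chr7:140955968-140956037, minus strand): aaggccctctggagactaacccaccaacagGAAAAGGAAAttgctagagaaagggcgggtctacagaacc
Stat2 (chr10:128270248-128270315, plus strand): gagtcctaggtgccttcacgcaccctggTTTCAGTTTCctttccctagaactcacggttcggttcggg
Bst2 (chr8:71537557-71537632, minus strand): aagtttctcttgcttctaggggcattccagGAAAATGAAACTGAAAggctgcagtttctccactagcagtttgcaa
Myd88 (chr9:119340019-119340088, minus strand): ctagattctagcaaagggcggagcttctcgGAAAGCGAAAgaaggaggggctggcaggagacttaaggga
B2m (chr2:122147518-122147587, plus strand): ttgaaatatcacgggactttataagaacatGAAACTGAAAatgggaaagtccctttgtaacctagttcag
Ifitm2, at 105 to 115 CPM in all libraries, carried 1 match, and Bst2, at 19.0 to 30.4 CPM, carried 2 overlapping ones. The windows shown are a selection of the 15. Of the tested genes left out, Ifitm3 and Oas1a held 2 matches each, and Ddx58 and Eif2ak2 held 1 each. Of the genes too low to test, Ifih1 and Irf2 were left out and held 1 each. The number of matches was not compared between the groups by a test. The windows of Ube2l6, Irak3 and Tlr2 held no match, which says only that these letters are absent there.

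**Figure D2:**
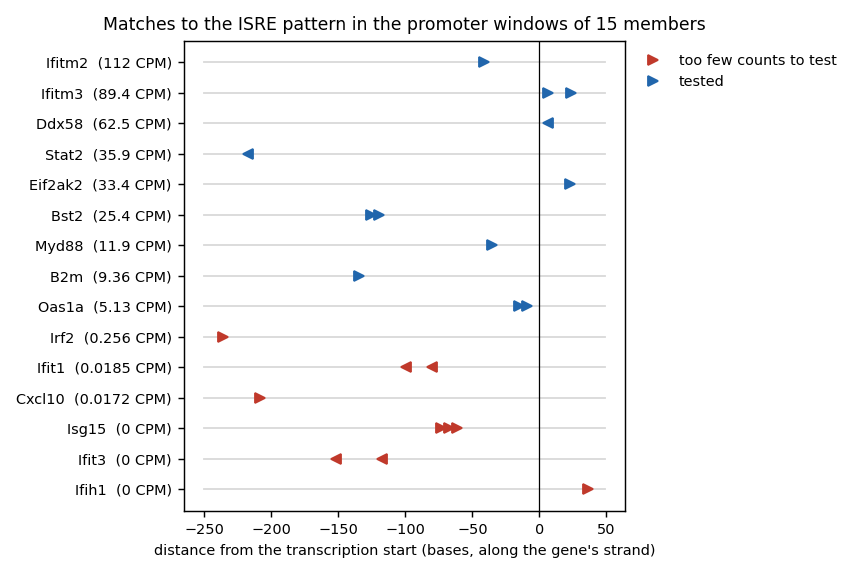
Positions of the matches to the ISRE core (arrowheads, pointing right for the gene's strand and left for the other) in the promoter windows of 15 genes, plotted as distance in bases from the transcription start and ordered by mean CPM over the 4 libraries. Genes too low to test (6, red) and tested genes (9, blue) both hold matches between 250 bases before and 50 after the start.

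The comparison of rescue with wild type asks which of these genes differ in cells to which Morc3 was returned. Of the 54 genes, 43 passed the low-count filter among 13267 genes tested, and none passed an adjusted p of 0.01 or 0.05 (quasi-likelihood test of edgeR, Benjamini-Hochberg adjusted). The background was 1 call, Ddx3y, or 0.00754% of the genes tested. DESeq2 gave an adjusted p for 29 of the 43 genes and called 0 of them. It called 0.691% of all genes to which it gave an adjusted p, or 0.49% of all genes tested. It gave none for the other 14, Ube2l6, Irak3 and Tlr2 among them, nor for 29.1% of all genes tested. At an unadjusted p under 0.05, edgeR listed 6 of the 43 genes against 10.3% of all genes tested, and DESeq2 listed 3 of the 43 against 5.75% of all genes tested. The 6 were Tmem173, Myd88, Irf9, Ube2l6, Ifitm3 and Dtx3l, all higher in rescue, a direction in which 5.92% of all genes tested had such a p, and none was lower, against 4.42%. Ube2l6, Irak3 and Tlr2 were included by name, and the 54 genes were chosen with earlier results of these data known. Shares of the 43 genes are therefore a description and no test of the genes as a set. The smallest adjusted p of the 43 was 0.249, for Tmem173 (quasi-likelihood test of edgeR, Benjamini-Hochberg adjusted).

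Without regard to a test, 18 of the 43 genes were above wild type in every clone, against 28.7% of all genes tested, and 7 were below it in every clone, against 28.4%. For the other 18 genes the clones lay on both sides of wild type. The shares were 41.9% above and 16.3% below. The median log2 fold change of the 43 genes was 0.13, and that of all genes tested was 0.0051. Clone by clone, the median difference from wild type in log2 CPM was 0.09 in 3C, 0.13 in 3D and 0.03 in 3M. Most of the genes lay close to wild type, with a log2 fold change under 0.5 in size for 33 of the 43, or 76.7%, against 85.8% of all genes tested. It was 1 or more in size for 3 genes, Ube2l6, Irak3 and Tmem173, against 3.77% of all genes tested. Ube2l6 and Irak3 were included by name with earlier results known, so this share and those above are a description only. The 95% interval stayed within 1 of 0 for 29 genes and within 0.5 for 13, so a difference above those sizes lay outside the interval only for these.

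**Figure D3:**
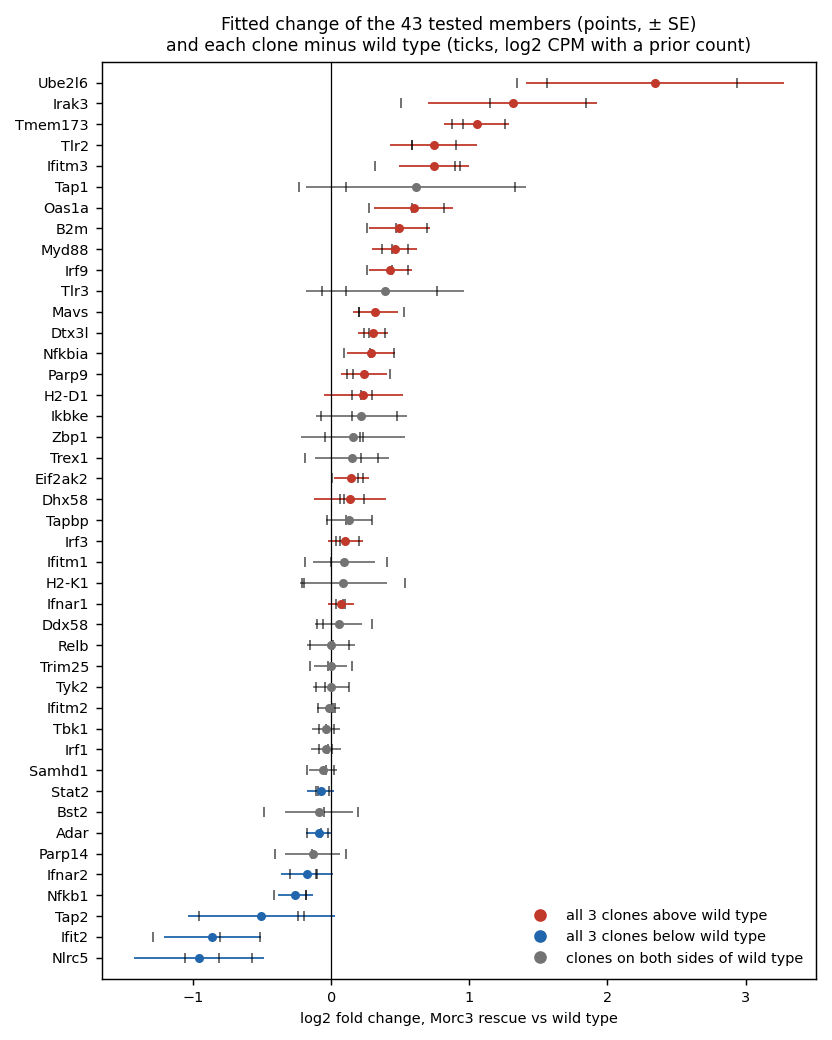
Fitted log2 fold change of rescue against wild type (points, with bars of 1 SE) and the difference of each of the 3 clones from wild type in log2 CPM with a prior count (ticks) for the 43 tested genes, ordered by fold change. Ube2l6, Irak3 and Tmem173 lie above 1, no gene lies below -1, and most points sit near 0.

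Among the RNA and DNA sensors of the 54 genes, Ddx58 had the highest level per transcript length, 15.7 CPM per kilobase in wild type, against 1.15 for Dhx58, 0.580 for Zbp1 and 0.143 for Tlr3. It was at 60.7 CPM in wild type and 74.5, 56.5 and 58.2 CPM in the clones, on both sides of wild type. The other sensors among the 54 genes were low in all libraries. Dhx58, which modulates RIG-I and MDA5, was at 2.78 CPM in wild type and 2.90 to 3.30 CPM in the clones. Zbp1, a sensor of Z-form nucleic acids, was at 1.15 CPM and 1.11 to 1.37 CPM. Tlr3, the endosomal receptor of double-stranded RNA, had between 8 and 18 counts per library. Its clones spanned 0.84 in log2 CPM, with the highest in 3M, at 1.16 CPM, against 0.593 and 0.687 CPM in 3C and 3D and 0.629 CPM in wild type. None of these 4 sensors passed the test, and their smallest adjusted p was 0.844 (quasi-likelihood test of edgeR, Benjamini-Hochberg adjusted).

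The adaptors and kinases downstream of the sensors were all expressed. Mavs was at 26.6 CPM in wild type and 30.6, 38.3 and 30.6 CPM in the clones. Tbk1 was at 34.7 CPM in wild type and 32.6 to 35.2 CPM in the clones, and its log2 fold change was -0.04 with a 95% interval of -0.29 to 0.22. Its relative Ikbke was low throughout, from 2.34 to 3.48 CPM. Tmem173, which encodes the STING adaptor of the cytosolic DNA pathway and lies on chromosome 18 of mm10 from 35733678 to 35740554, had the largest difference of this group. Wild type gave 96 counts of it, and 3C, 3D and 3M gave 165, 136 and 153, or 5.03 CPM against 12.2, 9.34 and 9.87 CPM. The 3 clones lay close together, at 10.5 ± 1.54 CPM (SD, n = 3), and the counting intervals of all of them were above that of wild type, whose upper bound was 6.14 CPM. The log2 fold change was 1.05 with a standard error of 0.23 and a 95% interval of 0.47 to 1.64, and it did not pass the test at an adjusted p of 0.249 (quasi-likelihood test of edgeR, Benjamini-Hochberg adjusted). DESeq2 gave an adjusted p of 0.138, and without clone 3D the adjusted p of edgeR was 0.0127, in a fit in which 6.9% of all genes tested had an adjusted p under 0.05. Over the alternatives tried it ranged from 0.0127 to 0.795.

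Of the surface Toll-like receptor pathway, Tlr2, Myd88 and Irak3 are among the 54 genes, and all 3 were above wild type in every clone, as were 28.7% of all genes tested. Tlr2 and Irak3 were included by name, so this count is no test of the pathway. Tlr2, the surface receptor of bacterial lipoproteins, lies on chromosome 3 from 83836272 to 83841824. It was at 1.83 CPM in wild type, from 35 counts, and at 2.82, 2.82 and 3.55 CPM in 3C, 3D and 3M. Its counting interval in wild type, 1.28 to 2.55 CPM, overlapped those of 3C and 3D but not that of 3M, which began at 2.67 CPM. The log2 fold change was 0.74 with a standard error of 0.31, and the adjusted p was 0.499 (quasi-likelihood test of edgeR, Benjamini-Hochberg adjusted). Myd88, the adaptor shared by most Toll-like receptors, was at 9.28 CPM in wild type and 13.7, 12.6 and 12.0 CPM in the clones, and its log2 fold change was 0.46 with a standard error of 0.16.

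Irak3, which encodes a kinase-like inhibitor of Myd88 signalling, lies on chromosome 10 from 120141648 to 120202130. Its counts were 27 in wild type and 73, 48 and 32 in 3C, 3D and 3M, or 1.41 CPM against 5.41, 3.30 and 2.06 CPM. The clones spanned 1.34 in log2 CPM, from the highest in 3C to the lowest in 3M. The counting intervals of 3C (4.24 to 6.80 CPM) and 3M (1.41 to 2.91 CPM) did not overlap, and that of 3M overlapped the wild-type interval, which ended at 2.06 CPM. The log2 fold change was 1.31 with a standard error of 0.61 and a 95% interval of -0.21 to 2.83, at an adjusted p of 0.529 (quasi-likelihood test of edgeR, Benjamini-Hochberg adjusted). Leaving out 3C gave a log2 fold change of 0.91 and leaving out 3M gave 1.61, and the adjusted p of edgeR ranged from 0.168 to 0.851 over the alternatives.

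**Figure D4:**
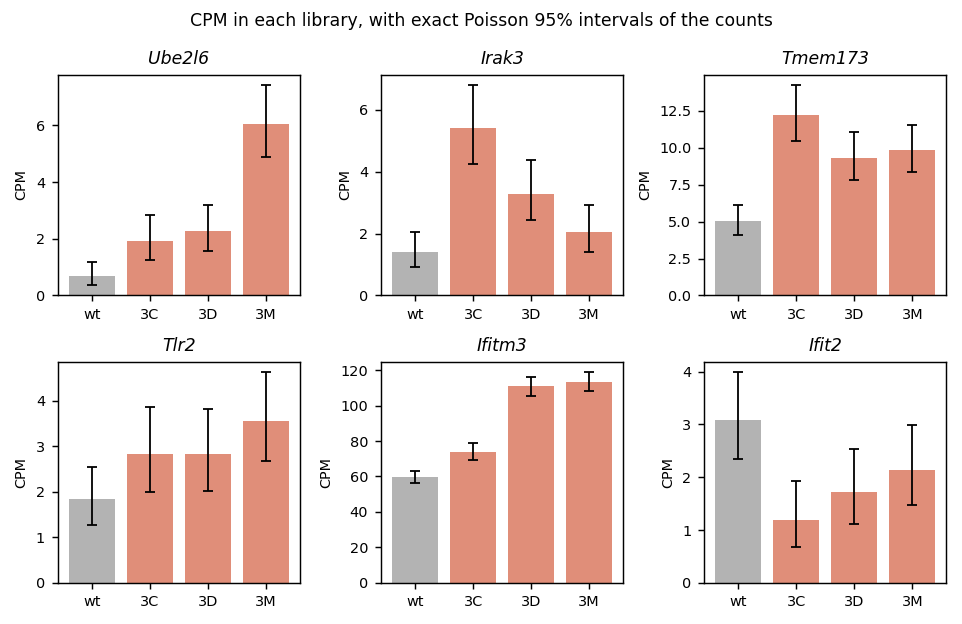
Bars of CPM in wild type (grey) and clones 3C, 3D and 3M (orange) for 6 genes, each on its own axis from 0, with exact Poisson 95% intervals of the counts. The 3 clones are close together for Tmem173 and far apart for Ube2l6, where 3M is at 6.06 CPM, and for Irak3, where 3C is at 5.41 CPM, and all clones are below wild type for Ifit2.

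The NF-kB genes differed little. Nfkb1, which encodes the p105 and p50 subunits, was at 48.9 CPM in wild type and at 43.00, 43.1 and 36.6 CPM in the clones, and its log2 fold change was -0.26 with a standard error of 0.12. Nfkbia, an inhibitor that NF-kB itself induces, was at 16.2 CPM in wild type and 17.3 to 22.3 CPM in the clones. Relb was at 12.2 CPM in wild type and 10.9 to 13.3 CPM in the clones, on both sides.

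The type I interferon receptor and its signalling proteins were expressed in every library. Ifnar1 was at 35.2 CPM in wild type and 36.1 to 37.6 CPM in the clones, with a range between clones of only 0.06 in log2 CPM. Its partner Ifnar2 was at 7.65 CPM in wild type and 7.12, 7.07 and 6.19 CPM in the clones, and its log2 fold change was -0.17 with a standard error of 0.19. Tyk2 was at 29.7 CPM and 27.4 to 32.4 CPM, and Stat2 at 37.3 CPM and 34.5 to 36.8 CPM. The levels of the receptor and of Stat2 thus lay within 0.2 of wild type on the fitted log2 scale. Irf9, which gives the complex with Stat2 its DNA binding, was at 18.9 CPM in wild type and 22.5, 25.7 and 27.8 CPM in the clones, and its log2 fold change was 0.43 with a standard error of 0.15. It is the only one of the 54 genes on chromosome 14, where the genes tested had medians 0.34, 0.34 and 0.35 above wild type in log2 CPM in 3C, 3D and 3M, and the part of that shift in the value of Irf9 was not tested. None of the 54 genes lies on chromosome 13, whose median was 0.48 above wild type in 3C and 3M and 0.03 in 3D.

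Of the other interferon regulatory factors, Irf1 was at 29.0 CPM in wild type and 27.2 to 29.1 CPM in the clones, and Irf3 at 22.8 CPM and 23.4 to 26.3 CPM. Irf3 is the factor that Tbk1 activates, and Irf1 is an activator of interferon and antiviral genes. Irf2, an antagonist of Irf1, had only 1 count in wild type and 4 to 5 counts per clone. Irf7 had no read pair in the orientation of its transcript, while 15, 9, 14 and 17 read pairs in wild type, 3C, 3D and 3M lay on its locus in the opposite orientation. The unstranded column therefore listed between 9 and 17 counts for Irf7.

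In the ISG15 pathway, Trim25 was at 211 CPM in wild type and 234, 189 and 208 CPM in the clones. Ube2l6, which encodes the conjugating enzyme that passes ISG15 to its targets, lies on chromosome 2 from 84798828 to 84810003. Its counts were 13 in wild type, then 26, 33 and 94 in 3C, 3D and 3M, or 0.681 CPM against 1.93, 2.27 and 6.06 CPM. This was the largest fitted difference among the 43 genes, with a log2 fold change of 2.34, a standard error of 0.93 and a 95% interval of 0.02 to 4.66. It did not pass the test, at an adjusted p of 0.482 (quasi-likelihood test of edgeR, Benjamini-Hochberg adjusted). All clones were above wild type, and the counting interval of each, from 1.26 CPM upwards, was above the wild-type upper bound of 1.17 CPM. Clone 3M was 3.15 times as high as 3C, and without 3M the log2 fold change was 1.61. Over the alternatives the adjusted p of edgeR ranged from 0.0331 to 0.832. The enzyme before it in the pathway, Uba7, had at most 2 counts in any library, and Isg15 itself had none.

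Of the 15 antiviral effectors, 10 were tested. Ifitm3 was at 59.5 CPM in wild type and at 74.0, 111 and 113 CPM in the clones, each with a counting interval above that of wild type. Its mean over the clones was 99.4 ± 22.0 CPM (SD, n = 3), and its log2 fold change was 0.74 with a standard error of 0.25 and an adjusted p of 0.429 (quasi-likelihood test of edgeR, Benjamini-Hochberg adjusted). Without 3D the adjusted p was 0.0415, and without 3C it was 0.0627, in a range of 0.0415 to 0.902 over the alternatives. The neighbouring genes of the same family had smaller fitted differences, and the difference between family members was not tested. Ifitm2 was at 113 CPM in wild type and 105, 114 and 115 CPM in the clones, and its log2 fold change was -0.02 with a 95% interval of -0.23 to 0.19. Ifitm1 was at 57.9 CPM in wild type and 50.6, 57.7 and 76.6 CPM in the clones, with 3M above wild type and the other clones below it.

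Oas1a, an oligoadenylate synthetase that activates RNase L, was at 3.72 CPM in wild type and 4.52, 5.63 and 6.64 CPM in the clones, and its log2 fold change was 0.60 with a standard error of 0.29. Eif2ak2, the kinase PKR, was at 31.0 CPM and 31.1 to 36.3 CPM. Bst2 was at 26.6 CPM in wild type and 30.4, 19.0 and 25.5 CPM in the clones, lowest in 3D. The linked genes Parp9 and Dtx3l, whose products act as a pair and whose spans overlap on opposite strands, were both above wild type in every clone. Dtx3l was at 36.7 CPM in wild type and 48.0, 43.3 and 44.4 CPM in the clones, and its log2 fold change was 0.30 with a standard error of 0.11, and Parp9 was at 17.8 CPM and 19.2 to 23.9 CPM. Their neighbour Parp14 was at 28.8 CPM in wild type and 21.6 to 31.0 CPM in the clones, on both sides.

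Ifit2, which binds AU-rich viral RNA, had the second lowest fold change of the 43 genes. Wild type gave 59 counts of it, and 3C, 3D and 3M gave 16, 25 and 33, or 3.09 CPM against 1.19, 1.72 and 2.13 CPM. All clones were below wild type, the counting intervals of 3C and wild type did not overlap, and those of 3D and 3M overlapped the wild-type interval of 2.35 to 3.99 CPM. The log2 fold change was -0.86 with a standard error of 0.35 and an adjusted p of 0.487 (quasi-likelihood test of edgeR, Benjamini-Hochberg adjusted). Of the Ifit genes followed here it was the only one with enough counts to test, as Ifit1 had 1 count and Ifit3 none in the same region of chromosome 19.

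The genes of nucleic-acid clearance and editing, whose loss is known to trigger interferon, were expressed and close to wild type. Adar, which edits double-stranded RNA, was at 74.7 CPM in wild type and 71.0, 73.4 and 66.0 CPM in the clones, and its log2 fold change was -0.09 with a 95% interval of -0.32 to 0.14. Samhd1 was at 84.5 CPM and 74.9 to 85.7 CPM, with a log2 fold change of -0.06. Trex1, the cytosolic DNA exonuclease, was at 4.93 CPM in wild type and 4.30 to 6.25 CPM in the clones.

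In antigen presentation, the peptide transporter and the class I regulator were low in all libraries. Tap1 was covered by 12 counts in wild type, with 24, 10 and 8 for 3C, 3D and 3M, a range of 1.57 in log2 CPM between clones, with 3C alone above the others. Tap2 was covered by 15 counts in wild type, with 9, 5 and 10 for the clones. Nlrc5, the transactivator of class I genes, was covered by 18 counts in wild type, with 8, 7 and 6 for the clones, with a log2 fold change of -0.96 with a standard error of 0.47 and an adjusted p of 0.552 (quasi-likelihood test of edgeR, Benjamini-Hochberg adjusted). B2m, the light chain of class I molecules, was at 7.18 CPM in wild type and 8.60, 11.7 and 10.0 CPM in the clones. The class I heavy chain gene H2-K1 was at 20.2 CPM in wild type and 17.4, 29.2 and 17.6 CPM in the clones, highest in 3D, and H2-D1 was at 2.15 CPM and 2.40 to 2.67 CPM. H2-K1 and H2-D1 are close in sequence to each other and to other class I genes, and reads shared between copies are lost in counts of uniquely mapped pairs, so their levels are uncertain. Tapbp, which loads peptides, was at 15.5 CPM and 15.2 to 19.0 CPM.

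Wide differences between clones were about as frequent among the 43 genes as among all genes tested. The range between the 3 clones in log2 CPM had a median of 0.32, against 0.24 for all genes tested. It was 1 or more for Ube2l6, Tap1 and Irak3, or 6.98% of the 43 genes, against 7.64% of all genes tested. The highest clone was 3M for Ube2l6 and 3C for Irak3 and Tap1. No clone was the high one throughout, since 3C was the highest clone for 17 of the 43 genes, 3D for 14 and 3M for 12. Clones were above wild type for 27, 28 and 25 of the 43 genes in 3C, 3D and 3M.

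**Figure D5:**
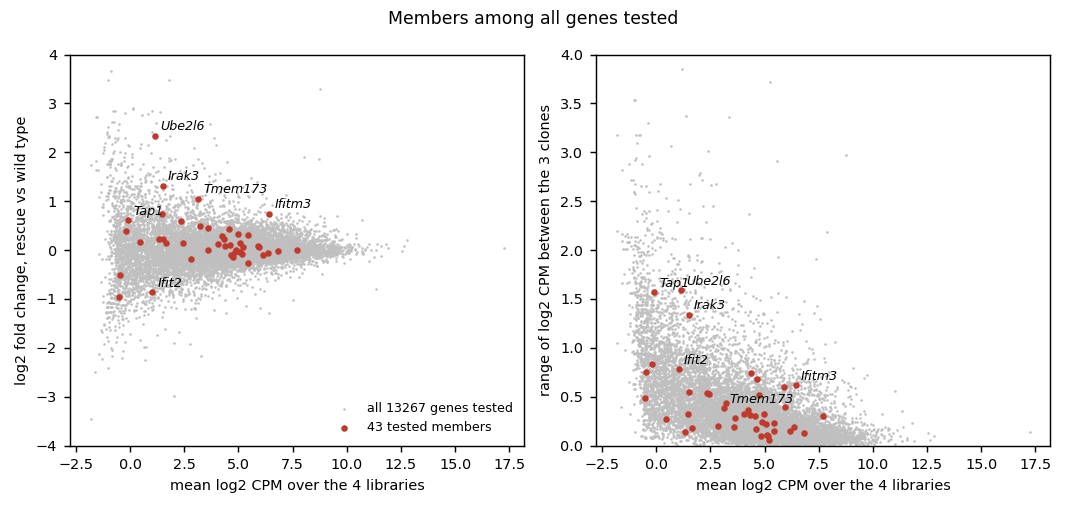
Fitted log2 fold change of rescue against wild type (left) and the range of log2 CPM between the 3 clones (right) against mean log2 CPM over the 4 libraries, for all 13267 genes tested (grey) and the 43 tested innate immune genes (red). Both spreads widen at low level, where Ube2l6, Irak3, Tap1 and Ifit2 lie, and 8 genes fall outside the left axis.

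The wider pathway was read from a list of 112 further genes found in the tables. All 15 interferon genes of the list, namely Ifnb1, 9 of the alpha type, Ifne, Ifnk, Ifng, Ifnl2 and Ifnl3, had 0 counts in every library. Only uniquely mapped pairs were counted, so reads shared between similar copies, as among the alpha type, would be lost. On the locus of Ifnk, 21, 8, 13 and 11 read pairs in wild type, 3C, 3D and 3M lay in the opposite orientation. Of the 112 genes, 68 were tested and none was called by edgeR, nor by DESeq2 among those to which it gave an adjusted p. At an unadjusted p under 0.05 by edgeR, 3 were higher and 3 lower, against 5.92% and 4.42% of all genes tested. Above wild type in every clone were 25 of the 68 and below it 13, against 28.7% and 28.4% of all genes tested, and the median log2 fold change was 0.07. Among those with all clones on one side, 3 had a log2 fold change of 1 or more in size. Oas3, a relative of Oas1a, was at 2.31 CPM in wild type and 1.04, 1.10 and 0.516 CPM in the clones, and its log2 fold change was -1.39. Parp12, an antiviral mono-ADP-ribosyltransferase, was at 14.04 CPM in wild type and 5.41, 9.82 and 5.42 CPM in the clones, and its log2 fold change was -1.03. Ripk1, a kinase of NF-kB and cell death signalling, was at 14.04 CPM in wild type and 31.7, 21.2 and 32.0 CPM in the clones, and its log2 fold change was 1.01, and it lies on chromosome 13, whose shift in 3C and 3M is given above. Without 3D, the adjusted p of edgeR was 0.00180 for Parp12 and 0.000413 for Ripk1, and 3.17% of all genes tested were then called.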

How the data were processed

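RNA was sequenced from 3 Morc3 rescue clones and 1 wild-type culture of mouse ES cells after rRNA depletion with a directional kit. Reads were mapped by the authors to mm10 using STAR, whose raw counts per gene, of pairs with a single hit, were deposited without scaling. Their gene annotation is not given in the sources. The reverse-strand column was used, and rows that name no gene (unmapped, multimapping, unassigned and ambiguous) stayed out of library sizes and tests. They were between 47.3% and 54.9% of all read pairs. Groups follow the genotype in the labels. No clones were copies of one library, since the chi-square statistic per gene between clones was at least 7.42.

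Counts were fitted over all genes by edgeR 4.0.16 under R 4.3.3 (TMM, filterByExpr, glmQLFit with legacy turned off, glmQLFTest), at an adjusted p of 0.01. Log2 CPM used a prior count of 2. Intervals on counts are exact Poisson 95% intervals and cover counting error only. Alternatives were DESeq2 1.42.0 as a test and its size factors, limma-voom from limma 3.58.1, the unstranded column, no filter, at least 10 counts in every library, an adjusted p of 0.05, other detection limits, and each clone left out, and, chosen after seeing the data, the legacy option of edgeR and the genes outside chromosomes 13 and 14.

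The 54 genes and all lists were chosen with earlier results of these data known. Genes described in full are Irak3, Tlr2 and Ube2l6, the 6 highest per kilobase, the 6 largest differences in each direction with all clones on one side, the 5 widest ranges between clones, those under 10 counts, and pathway genes with a log2 fold change of 1 or more. The other genes are given by role. Positions, names and promoters came from RefSeq (GRCm38.p6, the assembly of mm10) and transcript lengths from GENCODE. One gene of the wider pathway list is counted among its members but not reported here.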

Additional observations from a re-analysis of the deposited data

How the results depend on the processing

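None of the 54 genes was called at an adjusted p of 0.01 under any alternative. The number of all genes called, 1 in the fit reported, was 0 with at least 10 counts in every library, 0 with limma-voom, 0 with the legacy option of edgeR and 65 with DESeq2, and between 0 and 420 with single clones left out, the 420 without 3D. Without 3D, 3 of the 43 genes had an adjusted p under 0.05 by edgeR, Tmem173 at 0.0127, Ube2l6 at 0.0331 and Ifitm3 at 0.0415, as had 6.9% of all genes tested in that fit. With single clones left out, the median log2 fold change of the tested genes ranged from 0.078 (without 3D) to 0.136. The number below wild type in every remaining clone ranged from 9 (without 3M) to 12 (without 3C), against 7 with all clones. The number above it ranged from 19 (without 3D) to 22 (without 3C), against 18. Both conditions are easier to meet with fewer clones. Leaving out single clones turned the sign of 5 of the 19 log2 fold changes recomputed gene by gene. Ifitm2 ranged from -0.042 to 0.019, Ifitm1 from -0.096 to 0.215, Trim25 from -0.087 to 0.065, with 0.0038 without 3M, Bst2 from -0.254 to 0.071, and Tap1 from -0.070 to 0.941. Of 239 recomputed values, 225 were kept, a label that allowed some change in size. For the log2 fold changes of single genes it meant only that sign and call did not change, and 180 of 186 were kept. Their sizes could still move, as for Tlr3 from 0.389 to 0.028 and Ube2l6 from 2.34 to 1.61 without 3M. Apart from the easier condition with fewer clones, the cause of the other changes was not tested. No paired analysis was possible because wild type has 1 library and the clones carry no number that pairs them with it. At this depth the intervals of low genes such as Tap1, Tlr3 and Nlrc5 reach beyond 1 on the log2 scale.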
